A study of Daphnia magna with 24 samples.

Results

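Water fleas of the species Daphnia magna were exposed to long or to short silver nanowires that carried PVP, and their RNA was compared on single-colour microarrays. PVP (polyvinylpyrrolidone) is a polymer commonly used to stabilise silver particles. The comparison holds 8 of the 24 arrays of the study: L-PVP-NW A to D, from animals given long PVP silver nanowires, and S-PVP-NW 1 to 4, from animals given short PVP silver nanowires. All 8 were chosen by their titles, and all 14338 features of the array were tested. The remaining arrays, 4 each, came from unexposed animals in media (Control), from animals given ionic silver (Ag+), and from animals given long or short silver nanowires with silica (L-SiO2-NW and S-SiO2-NW). Every sample was RNA of whole organisms, in groups of about 20 animals, and each exposure lasted 24 h at 1/10 of the median lethal concentration (LC50) of that material. The concentrations were therefore set by toxicity, and the sources used here do not state the silver per volume of the long and short wires, nor the genotype, age and moult stage of the animals. The labels call the 4 arrays of a group replicates without saying that they came from separate cultures, so the p-values measure the spread between these samples. Because the RNA came from whole animals, less tissue of a type and less RNA per cell of that tissue cannot be told apart.

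A crustacean is enclosed in a cuticle of chitin fibres bound to proteins, and it sheds and rebuilds that cuticle at every moult. Many cuticle proteins of arthropods carry the Rebers-Riddiford motif, a stretch that binds chitin, and are divided by its form into RR-1 and RR-2 families. Spätzle proteins are secreted ligands that, in Drosophila, bind Toll receptors and act in embryonic patterning and in the response to fungi and Gram-positive bacteria. Adult female Daphnia also make large amounts of vitellogenin, the yolk precursor, and hemoglobin, which carries oxygen in the haemolymph.

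The probes that the results turn on are shown first, as the authors' deposited table lists them. Both Spätzle 2-like probes come first because they share a stretch, set in capitals, of 29 bases, so their signals are not independent measurements. The third Spätzle 2-like probe shares no run longer than 4 bases with either.
DM01743P3: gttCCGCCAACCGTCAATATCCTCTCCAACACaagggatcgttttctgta
DM02810P1: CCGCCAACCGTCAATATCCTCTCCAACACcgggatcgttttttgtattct
DM02038P1: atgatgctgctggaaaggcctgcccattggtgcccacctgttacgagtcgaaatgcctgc

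The next probes carry the cuticle result and the largest differences. DM00747P1 and DM02979P2 match cuticle proteins, DM02680P2 and DM02749P1 match 1 Aedes aegypti protein without a known function, and DM08108P3, DM04057P3 and DM11644P3 have no match with an E value of 0.001 or less that carries a protein description. No capitals are used in these.
DM00747P1: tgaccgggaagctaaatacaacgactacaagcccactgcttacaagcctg
DM02979P2: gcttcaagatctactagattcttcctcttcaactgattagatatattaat
DM02680P2: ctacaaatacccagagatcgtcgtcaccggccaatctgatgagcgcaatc
DM02749P1: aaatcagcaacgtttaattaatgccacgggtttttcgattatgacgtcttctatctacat
DM08108P3: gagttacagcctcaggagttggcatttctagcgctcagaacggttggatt
DM04057P3: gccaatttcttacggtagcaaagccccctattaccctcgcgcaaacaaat
DM11644P3: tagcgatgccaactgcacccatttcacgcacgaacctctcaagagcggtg

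The signal of a feature was the deposited scanner intensity, and differences were taken on the log2 scale after background adjustment and quantile normalization over the 24 arrays. A feature is called dim on an array where its intensity was below 2 times the lower quartile of that array. Between 3515 and 4754 features per array were not dim in the 2 PVP groups, 2 to 7 features per array were at the scanner's ceiling, and arrays of the same PVP group correlated with each other at 0.95 to 0.977 across features. Features matching vitellogenin (DM01556P2), hemoglobin 4 (DM01998P1), beta actin (DM02014P1) and the eye protein phosrestin (DM03055P2) were not dim on any of the 8 arrays. The floor of each array, its 1st percentile of intensity, was 48 to 50 in L-PVP-NW and 41 to 43 in S-PVP-NW, so whatever sets the floor and the length of the wire cannot be told apart within these 8 arrays. L-SiO2-NW arrays had the same floor as S-PVP-NW, 41 to 43, and Control arrays, at 46 to 50, overlapped L-PVP-NW, and values on those arrays are therefore given beside the main results.

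**Figure D1:**
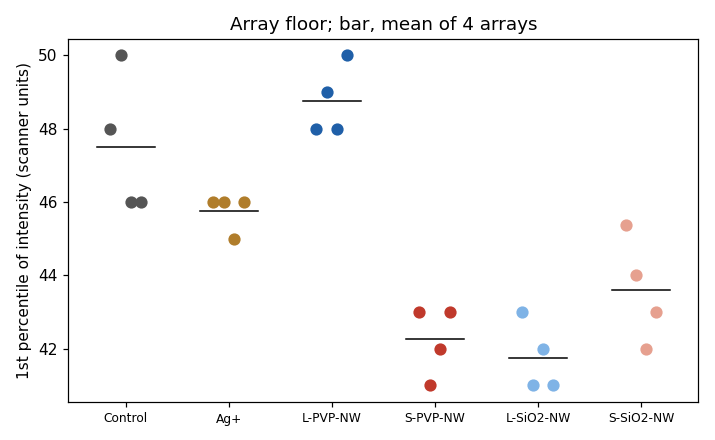
The 1st percentile of intensity of each array, in scanner units, by group. Points are single arrays and bars are the means of 4; S-PVP-NW lies at 41 to 43 beside L-SiO2-NW, and L-PVP-NW at 48 to 50 beside Control.

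RNA levels differed between the long-wire and the short-wire arrays, and features matched to cuticle proteins were the list with the most calls. Of 14338 features, 308 (2.15%) differed with limma's moderated test and a Benjamini-Hochberg adjusted p under 0.05. Signal was higher with long wires in 195 of them (1.36%) and lower in 113 (0.788%). The higher features moved further: their median difference was 1.2 on the log2 scale, and 108 exceeded 2-fold. Those lower with long wires had a median of -0.584, and 8 exceeded 2-fold. In 294 of the 308, every array of one group lay above every array of the other, against 1619 (11.3%) of all features, which divide into 5.21% with long wires above and 6.08% with long wires below. The 308 were selected by p on these same arrays, so this separation follows largely from the selection. In 69 of the 308, the feature was dim on all 8 arrays, as were 8829 of all features. Of these 69, 56 were higher and 13 lower with long wires, whose arrays also had the higher floor. With each array centred on its median instead, 287 features passed and 44.3% of them, in place of 63.3%, were higher with long wires. The count was 68 without L-PVP-NW A, 89 without B, 200 without C and 482 without D, and 151, 106, 108 and 157 without S-PVP-NW 1, 2, 3 and 4. No feature passed when limma's fit also held the floor of each array, where 1126 had an unadjusted p under 0.05, and the median standard error of the 308 rose from 0.166 to 0.345. All 308 kept their sign in that fit, and the median of the 195 higher features was 0.956 in place of 1.2. Among the features named below, it moved the difference by over 1.5 times for DM02210P2 (3.58 to 1.11), DM08108P3 (4.34 to 2.75), DM02071P1 (2.39 to 1.28), DM02441P3 (-1.74 to -2.75) and DM00264P2 (-0.81 to -0.42), and for the dim DM05983P1 (0.84 to 0.51), DM02618P3 (0.41 to 0.22) and DM06305P3 (0.33 to 0.07).

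A protein description with an E value of 0.001 or less was listed for 493 features in the authors' deposited table, and names are taken from it. Among these, 27 (5.48%) passed: 26 (5.27%) were higher with long wires and 1 (0.203%) was lower. The table lists 1826 features that the authors chose from these samples, so the higher share of calls in it, 139 or 7.61% against 1.35% of the features outside it, is no independent evidence. Every list and group of matched features below comes from that table, so the same limit holds for its share against all features. Nearly all the features that were lower with long wires, 110 of 113, lie outside that table and have no name here.

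Cuticle features were higher on the long-wire arrays. Of 19 features matched to cuticle proteins, 9 were higher with long wires and none was lower, and 15 had no overlap between the groups. Over all features, 1.36% passed as higher with long wires, and 5.21% had every long-wire array above every short-wire array. Among described features, 5.27% passed as higher, and in the authors' deposited table, from which the list is drawn, 136 of 1826 did. The median difference of the 19 was 1.65 on the log2 scale, against -0.00779 over all features. The brightest member that passed was DM02979P2, matched to a pupal cuticle protein 78E. It read 16910, 9341, 15964 and 17102 in L-PVP-NW A to D and 734, 4313, 10159 and 2835 in S-PVP-NW 1 to 4. After normalization the groups were apart, although S-PVP-NW 3 was brighter than L-PVP-NW B in the scanner values, and the difference was 2.45 ± 0.56 (SE; limma, adjusted p = 0.0279). It did not pass without L-PVP-NW A or B or without S-PVP-NW 1, 2 or 4.

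DM00747P1, matched to a putative cuticle protein of the brine shrimp Artemia, had the smallest p of the list. Its intensities were 620, 245, 792 and 222 with long wires and 81, 95, 155 and 116 with short wires. All 4 short-wire arrays lay below the long-wire arrays, 2 of them dim, and the difference was 2.13 ± 0.34 (SE; limma, adjusted p = 0.00423), or 4.38-fold. On the other 16 arrays it read 250 to 662, above every S-PVP-NW array.

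DM06074P3, another Artemia match, was much brighter. The long-wire arrays read 3763, 1906, 3246 and 2006, and the short-wire arrays 405, 1536, 1280 and 989. The groups did not overlap, and the difference was 1.78 ± 0.39 (SE; limma, adjusted p = 0.0239). DM02885P1, matched to an aphid cuticle protein, read 856, 587, 1016 and 555 against 83, 333, 528 and 142 and differed by 2.12 ± 0.51 (SE; limma, adjusted p = 0.036). In both, S-PVP-NW 1 was the lowest of the 8 arrays. DM06074P3 did not pass without L-PVP-NW A or B or without S-PVP-NW 1 or 3, and DM02885P1 did not pass without L-PVP-NW A, B or C or without S-PVP-NW 1, 2 or 4.

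DM02274P1 and DM01895P1 were of medium brightness. DM02274P1, an Aedes match, read 318, 270, 356 and 341 against 64, 123, 188 and 114, a difference of 1.79 ± 0.39 (SE; limma, adjusted p = 0.0227). DM01895P1 read 379, 274, 638 and 282 against 72, 193, 170 and 143, a difference of 1.76 ± 0.38 (SE; limma, adjusted p = 0.0232). No array of one group reached the other in either. Neither passed without L-PVP-NW A or B or without S-PVP-NW 1, nor DM02274P1 without S-PVP-NW 2, nor DM01895P1 without L-PVP-NW C or S-PVP-NW 3. DM06063P3, matched to the Drosophila Cuticular protein 49Aa, completes the brighter members that passed, with 2175, 1902, 3044 and 1090 against 719, 825, 704 and 815 and a difference of 1.65 ± 0.40 (SE; limma, adjusted p = 0.036). It passed when L-PVP-NW D was left out and not when any other of the 8 arrays was.

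The remaining 2 called members were dim on all 8 arrays. DM05983P1 read 84 to 112 with long wires and 55 to 66 with short wires, and DM02618P3, matched to an endocuticle structural glycoprotein, read 69 to 81 and 46 to 58. Neither passed without L-PVP-NW A or B or without S-PVP-NW 2, nor DM05983P1 without S-PVP-NW 1, 3 or 4. Readings this low lie near the array floor, which also differed between the groups. With the floor in the fit their differences were 0.51 and 0.22 and neither passed, and the part of the floor in them cannot be told apart from length.

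Of the 10 cuticle members that did not pass, 6 were nonetheless free of overlap after normalization. DM02582P1, matched to Cuticular protein 50Cb, read 549, 774, 1008 and 304 against 99, 84, 302 and 88, a difference of 2.56 with an adjusted p of 0.0649 by limma. The RR-2 match DM02211P2 had a difference of 1.66 (limma, adjusted p = 0.0573), and the RR-1 matches DM06031P1 and DM02191P2 had differences of 1.17 and 1.80 (limma, adjusted p = 0.087 and 0.105). At the other end, DM02085P1, a Cuticle protein 7 match, stood at -0.11 and read 381 to 751 against 682 to 1158. The other Cuticle protein 7 matches, DM02344P1 and DM02276P3, stood at 1.13 and 0.05, so these matches did not move as one.

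The list's level, its mean log2 deviation per array from the mean of the 24 arrays, was 0.783, 0.227, 0.327 and 0.378 in L-PVP-NW A to D. In S-PVP-NW 1 to 4 it was -1.31, -0.822, -0.514 and -0.742. All 4 short-wire arrays lay below the other 20 arrays of the study, whose lowest value was -0.454, on an Ag+ array. L-SiO2-NW, with the same floor as S-PVP-NW, ranged from -0.4 to 0.959. That group also differs from S-PVP-NW in coating and length, so the part of the floor in the cuticle level cannot be told apart. The cuticle count was 1 without L-PVP-NW A, 1 without B, and 2, 3, 5 and 5 without S-PVP-NW 1, 2, 3 and 4. When the fit also held the floor it was 0, with a list median of 1.37. With all descriptions counted whatever their E value, 34 cuticle features made up a group formed after values were seen. Of these, 17 were higher, against 1.36% of all features and 136 of the 1826 in the authors' deposited table. None was lower and the median was 1.32.

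**Figure D2:**
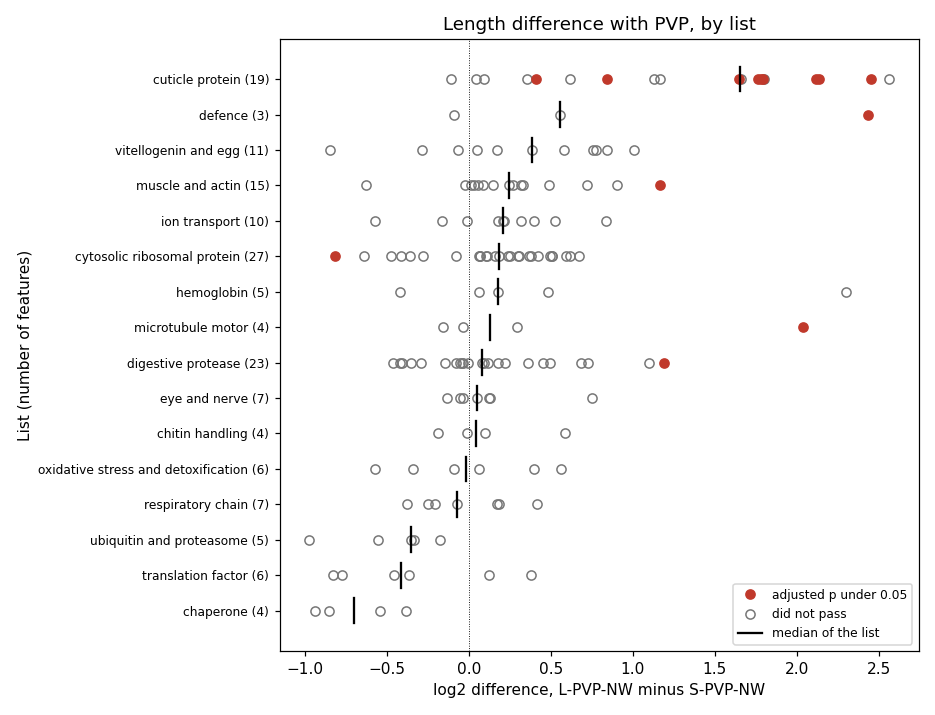
Log2 difference, L-PVP-NW minus S-PVP-NW, of every member of the 16 lists with at least 3 features; each point is 1 feature, filled where the adjusted p was under 0.05, and the vertical mark is the list's median. The cuticle list stands at a median of 1.65 with 9 filled points; no other list has more than 1.

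Among the described features named here, the smallest p-values came from DM01743P3 and DM02810P1, both described as Spätzle 2-like and matched to the salmon louse. Features with that description form a group of 6 that was gathered after their values were seen, because the authors' deposited table spells the name without its umlaut. DM01743P3 read 9876, 7452, 13024 and 5342 in L-PVP-NW A to D and 883, 2061, 3333 and 1645 in S-PVP-NW 1 to 4. The group means were 8924 ± 3300 and 1980 ± 1030 (SD, n = 4 each). Every long-wire array lay above every short-wire array, and the difference was 2.50 ± 0.31 (SE; limma, adjusted p = 0.000593), or 5.67-fold. The other 16 arrays of the study read between 5066 and 14127, above the brightest S-PVP-NW array.

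DM02810P1, which shares the stretch set in capitals, read 10902, 9291, 15591 and 5885 against 1009, 2467, 4127 and 1903. The 4 short-wire arrays were again the low ones, and the difference was 2.45 ± 0.36 (SE; limma, adjusted p = 0.00175). DM02038P1, whose sequence is distinct, read 1825, 1694, 3055 and 1199 against 149, 769, 751 and 310. Its groups were apart by 2.49 ± 0.45 (SE; limma, adjusted p = 0.00734). In these 3 features L-PVP-NW C was the brightest long-wire array and S-PVP-NW 1 the dimmest short-wire array.

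The other 3 Spätzle 2-like features were dim on all 8 arrays. DM06305P3 read 62 to 73 against 46 to 51 and passed with a difference of 0.33 (limma, adjusted p = 0.0396), though only L-PVP-NW D of the 8 arrays could be left out without losing the call. DM05864P1 and DM02891P1 had differences of 0.46 and 0.29 and did not pass (limma, adjusted p = 0.0842 and 0.164). All 6 lay without overlap after normalization, against 5.21% of all features with long wires above, though all 6 come from the table that the authors chose from these samples. With the floor, which also differed between the groups, in the fit, DM06305P3 stood at 0.07 and did not pass. The part of the floor in the dim readings cannot be told apart from length.

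**Figure D3:**
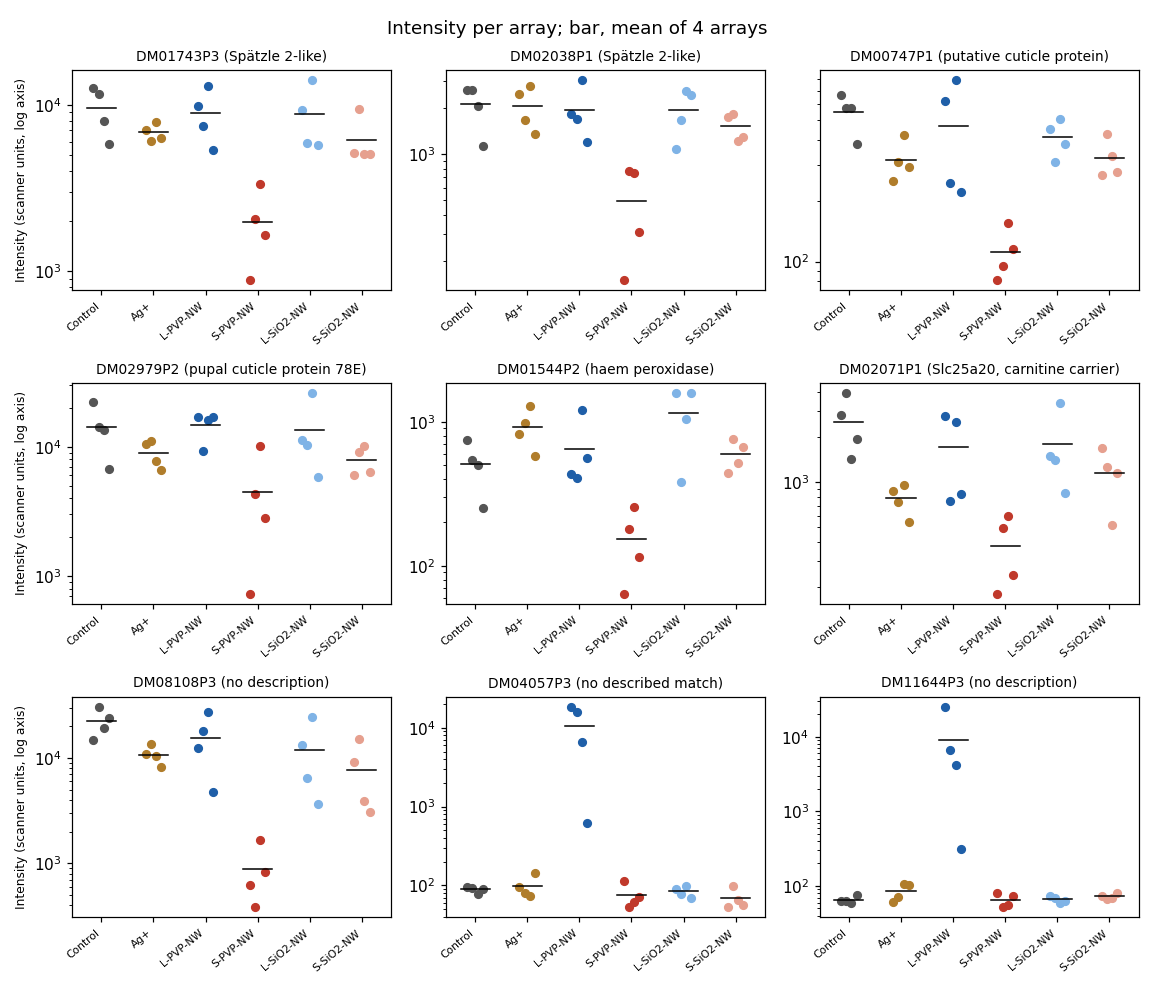
Deposited intensity of 9 features on all 24 arrays, on log axes, with 1 point per array and the group mean of 4 as a bar. In the first 7 panels S-PVP-NW has the lowest group mean, as for DM01743P3 with arrays at 883 to 3333. S-PVP-NW 3 nonetheless lies above single arrays of other groups in DM02979P2, DM01544P2 and DM02071P1. In DM04057P3 and DM11644P3 the L-PVP-NW arrays are the high group, with L-PVP-NW D the lowest of them at 625 and 310.

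Large differences also came from features matched to proteins known only by an identifier. DM02680P2 and DM02749P1 both match the hypothetical Aedes protein AAEL004921 and share no run longer than 5 bases. DM02680P2 read 9110, 7966, 10896 and 5329 with long wires and 259, 864, 2395 and 836 with short wires. DM02749P1 read 19974, 12931, 20516 and 13112 against 451, 2111, 5562 and 1734. The short-wire arrays were far below the long-wire arrays in both, by 3.55 ± 0.55 and 3.45 ± 0.55 (SE; limma, adjusted p = 0.00334 and 0.00423), or 11.7-fold and 10.9-fold. Of the 3 further features with that match, chosen after their values were seen, DM02560P2, DM02375P3 and DM05935P3 stood at 0.95, 1.42 and 0.55 and did not pass.

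DM02210P2 matches a bee protein similar to CG6305, the identifier that the authors' deposited table pairs with Cuticular protein 50Cb elsewhere. It read 7959, 4349, 6396 and 3790 against 167, 411, 1558 and 679. The groups were apart by 3.58 ± 0.76 (SE; limma, adjusted p = 0.02). It did not pass without L-PVP-NW A or B or without S-PVP-NW 1 or 2. Among 10 features matched to CG6305 or CG30045, gathered after their values were seen and including DM06063P3 and DM02582P1 of the cuticle list, all 10 lay without overlap and 5 passed, against 5.21% and 1.36% of all features with long wires above. Of these 10, 3 were dim on all 8 arrays, among them the called DM03723P1 and DM06354P1. Neither of these calls passed with the floor in the fit, and the part of the floor in the dim readings cannot be told apart from length.

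Among single genes of other roles, DM01544P2 matched an animal haem peroxidase, a family that in insects oxidises tyrosines of extracellular proteins and hardens egg coats. Its match has an E value of 0.001, at the limit used here. It read 432, 409, 1202 and 562 against 64, 180, 257 and 115. The short-wire arrays were below the long-wire arrays, and the remaining 16 arrays read 250 to 1580. After normalization the 4 short-wire arrays were the lowest of the 24, and the difference was 2.43 ± 0.43 (SE; limma, adjusted p = 0.00724).

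DM02071P1 matched a sea urchin protein similar to Slc25a20, in vertebrates the carrier that brings acylcarnitines into mitochondria for fatty acid oxidation. It read 2769, 754, 2537 and 839 against 181, 494, 593 and 242. The long-wire arrays fell into a bright and a dim pair, both above the short-wire arrays, and the difference was 2.39 ± 0.49 (SE; limma, adjusted p = 0.0174). DM01147P4, matched to an outer arm dynein light chain, a subunit of the motor of cilia and flagella, read 355, 217, 518 and 388 against 75, 144, 125 and 92 and differed by 2.04 ± 0.43 (SE; limma, adjusted p = 0.0189). Neither passed without L-PVP-NW A or without S-PVP-NW 1.

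Smaller differences were found for 2 further named genes. DM06032P1, described as a trypsin domain lipoprotein, read 1326, 1657, 3228 and 1710 against 1033, 1374, 937 and 859, and differed by 1.19 ± 0.25 (SE; limma, adjusted p = 0.02). It did not pass with each array centred on its median, without L-PVP-NW B or without S-PVP-NW 3. DM01598P3, matched to transgelin, an actin-binding protein of the calponin family, read 1810, 2919, 5609 and 2091 against 2008, 1708, 1282 and 1308. Its groups overlapped in the scanner values and not after normalization, the difference was 1.17 ± 0.30 (SE; limma, adjusted p = 0.0427), and it did not pass without any 1 of the 8 arrays.

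The only described feature lower with long wires was DM00264P2, matched to ribosomal protein L3e of the large subunit. It read 133, 121, 180 and 170 with long wires and 252, 525, 356 and 267 with short wires, without overlap. The difference was -0.81 ± 0.20 (SE; limma, adjusted p = 0.0396). It did not pass without L-PVP-NW A, B or C or without S-PVP-NW 2, 3 or 4. The other 26 cytosolic ribosomal features did not pass, and the median of the 27 was 0.184, or -0.0925 with each array centred on its median.

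The unnamed features with the largest falls that passed were of low to medium intensity. DM02441P3 read 83, 119, 188 and 108 against 383, 794, 628 and 300 and differed by -1.74 ± 0.43 (SE; limma, adjusted p = 0.0384). DM00850P2 read 138, 182, 138 and 187 against 349, 802, 828 and 299 and differed by -1.27 ± 0.31 (SE; limma, adjusted p = 0.0362). DM01316P3 read 172, 229, 535 and 338 against 632, 1263, 1105 and 549 and differed by -1.12 ± 0.26 (SE; limma, adjusted p = 0.0341). In all 3 every long-wire array was below every short-wire array. None passed without L-PVP-NW A or B or without S-PVP-NW 2 or 3, and DM02441P3 also did not pass without L-PVP-NW C or without S-PVP-NW 1 or 4, nor DM00850P2 without L-PVP-NW C.

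Features without a description held the largest rises. DM04057P3 read 18551, 16081, 6664 and 625 in L-PVP-NW A to D and 113, 53, 62 and 71 in S-PVP-NW 1 to 4, where it was dim on 3 arrays. The difference was 6.39 ± 0.61 (SE; limma, adjusted p = 2.83e-05), the smallest p of all features. DM11644P3 read 25251, 6734, 4196 and 310 against 81, 52, 56 and 74. It was dim on all 4 short-wire arrays, so the rise is given as at least 38.7-fold (limma, adjusted p = 0.00054). DM11644P3 did not pass when only the L-PVP-NW and S-PVP-NW arrays were fitted. The 20 arrays other than L-PVP-NW read at most 144 and 107, and in both features L-PVP-NW A was the brightest of its group and D the dimmest. The fit uses 1 spread per feature for all 6 groups. The even, low readings of those 20 arrays therefore narrow the SE, which does not describe the wide spread of the long-wire arrays alone.

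DM11495P2 read 17151, 18722, 1473 and 278 against 231, 73, 83 and 190, a difference of 4.77 ± 1.18 (SE; limma, adjusted p = 0.0384). It was also bright on the Ag+ arrays, at 5689 to 43831, and read 842 on Control 1. L-PVP-NW D was close to S-PVP-NW 1, and the feature did not pass without L-PVP-NW A or B or without any 1 S-PVP-NW array.

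DM08108P3, chosen after its values were seen because S-PVP-NW was its lowest group, read 12324, 18144, 27171 and 4709 against 627, 385, 1671 and 821. The difference was 4.34 ± 0.58 (SE; limma, adjusted p = 0.0011). The other 16 arrays read 3042 to 30561, so the short-wire arrays stood below all of them. Across the array this pattern was counted: S-PVP-NW was below all other 20 arrays in 46 features, of which 33 were among the 195 higher with long wires, and L-PVP-NW was above all other 20 in 14, of which 8 were among them. In the opposite sense, S-PVP-NW was above all other 20 in 42 features, of which 12 were among the 113 lower with long wires, and L-PVP-NW was below in 4, of which 1 was. Of those 33, 8 were described: the Spätzle 2-like DM01743P3, DM02810P1 and DM02038P1, the cuticle matches DM00747P1 and DM01895P1, DM02680P2, the peroxidase match DM01544P2 and the dynein match DM01147P4.

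Set against unexposed animals, the 2 groups gave different counts. S-PVP-NW differed from Control in 194 features (1.35%), 153 lower (1.07%) and 41 higher (0.286%), and L-PVP-NW differed in 4 (0.0279%), all of them higher, while 1331 had an unadjusted p under 0.05. When the fit also held the floor, these counts were 1 and 3. The floor was 46 to 50 in Control, 48 to 50 in L-PVP-NW and 41 to 43 in S-PVP-NW. The 2 comparisons share the Control arrays, and whether their counts differ was not tested. For the 195 features higher with long than with short PVP wires, the median difference from Control was -0.62 in S-PVP-NW, with 88 called lower, and 0.133 in L-PVP-NW, with 4 called higher. For the 113 lower ones it was 0.411 in S-PVP-NW, with 15 called higher, and -0.187 in L-PVP-NW. Both sets were selected on the same S-PVP-NW and L-PVP-NW arrays, so these medians and counts are no independent evidence. Cuticle features, from the table the authors chose from these samples, had a median of -1.51 in S-PVP-NW minus Control, with 11 of 19 lower. In L-PVP-NW minus Control their median was -0.133, with none called. For DM01743P3 these differences were -2.49 (limma, adjusted p = 0.000458) and 0.01 (limma, adjusted p = 0.994), and for DM02680P2 they were -4.53 (limma, adjusted p = 0.000372) and -0.99 (limma, adjusted p = 0.621).

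The 4 features higher in L-PVP-NW than in Control were DM04057P3, DM11644P3, DM12580P3 and DM05091P2, named here after their values were seen. DM04057P3 stood at 6.03 (limma, adjusted p = 7.44e-05) and DM11644P3 at 5.95 (limma, adjusted p = 0.000429) on the log2 scale. DM12580P3 read 198, 197, 347 and 133 in L-PVP-NW A to D and 60 to 143 in Control, where it was dim on 3 arrays. DM05091P2 was dim on every array of both groups, with mean intensities of 78 in L-PVP-NW and 52 in Control. The count of 4 was 123 without Control 1, 91 without L-PVP-NW D and 2 without Control 4, and the count of 194 was 105 without Control 3 or S-PVP-NW 2, 115 without S-PVP-NW 1 and 309 without Control 4.

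**Figure D4:**
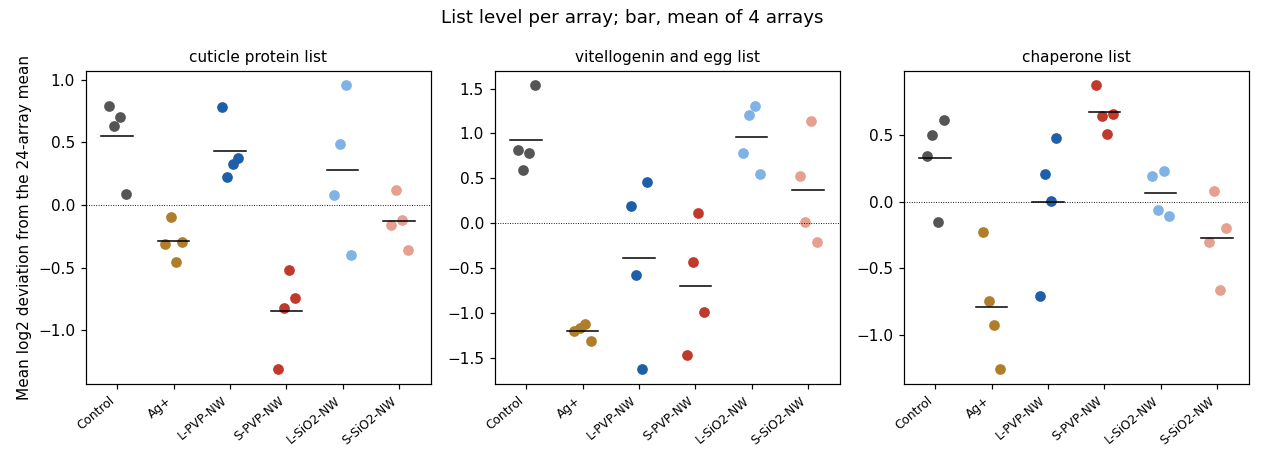
Level per array of 3 lists, the mean log2 deviation of the members from the mean of the 24 arrays, by group; points are arrays and bars are means of 4. In the cuticle panel S-PVP-NW lies at -1.31 to -0.514, below every other array, while the 2 PVP groups overlap in the vitellogenin panel and S-PVP-NW is above L-PVP-NW in the chaperone panel.

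No call was made among the yolk and oxygen transport genes. None of 11 vitellogenin and egg features passed, and their median was 0.387, or 0.00234 with each array centred on its median. DM01556P2, a match to the Daphnia vitellogenin that is fused with superoxide dismutase, read 8089, 2522, 2127 and 6094 against 482, 11709, 14690 and 627. DM02775P1, with the same description, read 3756, 26641, 2720 and 25244 against 19309, 10921, 39258 and 22886. Arrays of 1 group were spread widely in both features, and the groups overlapped.

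None of 5 hemoglobin features passed. DM01561P3 came nearest, with 792, 5021, 2386 and 786 against 191, 450, 566 and 647, a difference of 2.30 ± 0.70 (SE; limma, adjusted p = 0.0937). Its groups did not overlap. DM01998P1, matched to hemoglobin 4, read 2830, 5697, 2954 and 1868 against 4213, 4578, 10313 and 3439 and stood at -0.42.

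Features for proteins that fold or degrade others had differences below 0, and none passed. Chaperones, which fold new or damaged proteins, had a median of -0.696 over 4 features, all below 0, and a level of -0.71 to 0.479 in L-PVP-NW and 0.511 to 0.879 in S-PVP-NW. DM01385P3, a chaperonin, read 2881, 4473, 6673 and 2815 against 9483, 10172, 12509 and 7562, without overlap in the scanner values, and stood at -0.94 (limma, adjusted p = 0.404). DM01059P3, matched to the 90 kDa heat shock protein, read 504, 1319, 2299 and 1847 against 3868, 3075, 2968 and 2631, and stood at -0.85 (limma, adjusted p = 0.554). In both, every long-wire array read below every short-wire array in the scanner values. After normalization, 1 of the 4 chaperone features had no overlap, against 6.08% of all features with long wires below.

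Of 5 ubiquitin and proteasome features none passed and all were below 0, with a median of -0.352. DM00326P3, a ubiquitin conjugating enzyme, read 235, 263, 508 and 346 against 805, 864, 1044 and 735 and stood at -0.97 (limma, adjusted p = 0.186). Every long-wire array was the lower.

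Few features for the handling of metals, oxidants and foreign compounds were listed, and they gave no calls. None of 6 features for oxidative stress and detoxification passed, and their median was -0.0142. Of these 6, 2 were dim on every array of both PVP groups. DM00670P2, thioredoxin reductase, which reduces thioredoxin, read 309, 368, 858 and 359 against 624, 1514, 1104 and 531 (limma, adjusted p = 0.296). DM01902P1, ferritin, which stores iron, read 108 to 178 against 102 to 121 (limma, adjusted p = 0.875). The 2 groups overlapped in the scanner values of both.

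The remaining lists gave at most 1 call each. Muscle and actin features had 1 higher of 15 (transgelin), digestive proteases 1 of 23 (the trypsin domain match), microtubule motors 1 of 4 (the dynein match) and defence 1 of 3 (the peroxidase match). No feature passed among 4 for chitin handling, 6 translation factors, 7 of the respiratory chain, 10 for ion transport and 7 of eye and nerve. Chitinase 10 (DM01392P4), which cuts chitin during moulting in insects, read 613, 593, 1454 and 921 against 949, 1303, 2243 and 551, a difference of -0.01. Na+/K+-ATPase (DM02354P1), the pump that drives ion uptake, read 3599, 2849, 4713 and 3364 against 1356, 3233, 3866 and 2118 and stood at 0.84 (limma, adjusted p = 0.102).

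The same contrast of length was made with silica, on 8 arrays that the PVP contrast did not use. There, 5 features passed in limma's fit (0.0349%), 1 higher (0.00697%) and 4 lower (0.0279%) with long wires, and 825 had an unadjusted p under 0.05. That count was 2, 14, 0 and 1 without L-SiO2-NW 1, 2, 3 and 4, 0 without S-SiO2-NW 2 or 3 and 24 without S-SiO2-NW 4. None of the 308 features called with PVP was among the 5. Of the 195 features higher with long PVP wires, 161 (82.6%) were above 0 with silica, against 6978 (48.7%) of all features, with a median of 0.191 against 1.2 with PVP. Of the 113 lower ones, 88 (77.9%) were below 0 with silica, against 51.3% of all features. In the cuticle list 17 of 19 were above 0 with silica and the median was 0.482, against 1.65 with PVP.

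The silica values of 3 features that were named for their PVP difference are given beside it, and no interaction of these 3 passed (limma, adjusted p = 0.173 for DM01743P3, 0.765 for DM02210P2 and 0.394 for DM00747P1). DM01743P3 read 9336, 5869, 14127 and 5736 in L-SiO2-NW 1 to 4 and 5156, 9381, 5066 and 5074 in S-SiO2-NW 1 to 4. These groups overlapped, and the silica difference was 0.51 ± 0.31 (SE) against 2.50 with PVP. DM02210P2 read 7405, 6149, 15310 and 3162 against 5572, 6884, 293 and 1876, a silica difference of 1.80 ± 0.76 (SE) against 3.58. DM00747P1 had 0.48 ± 0.34 (SE) with silica against 2.13.

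**Figure D5:**
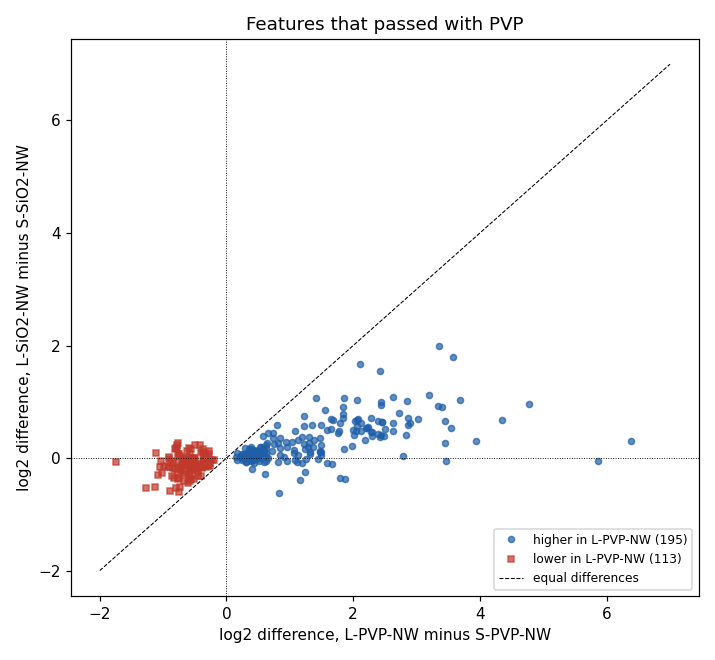
Log2 difference between long and short wires with PVP (x axis) and with silica (y axis) for the 308 features that passed with PVP; circles were higher and squares lower with long PVP wires, and the dashed line marks equal differences. The 195 circles have medians of 1.2 with PVP and 0.191 with silica; the features were selected on the x axis.

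The difference between the length effects was tested as an interaction, and 3 features passed (0.0209%), with 1105 at an unadjusted p under 0.05. None passed in limma when the fit also held the floor, where 918 had an unadjusted p under 0.05. DM04057P3 had an interaction of 6.09 ± 0.87 (SE; limma, adjusted p = 0.0135) and DM11644P3 of 5.92 ± 1.00 (SE; limma, adjusted p = 0.0435), and both read at most 98 on every silica array. The SEs of both rest on the spread shared by all 6 groups, while their L-PVP-NW readings ranged from 625 to 18551 and from 310 to 25251. DM12737P2 had an interaction of 1.46 ± 0.24 (SE; limma, adjusted p = 0.0435), with a difference of 0.83 with PVP and -0.63 with silica. No interaction of a cuticle or Spätzle 2-like feature passed, and among described features DM02000P3, matched to a secreted protein of ticks, came nearest (limma, adjusted p = 0.0757). It stood at 1.33 with PVP, from 33172, 9393, 35242 and 6283 against 12208, 8893, 6115 and 7055, and at -1.81 with silica. The interaction count was 0 without S-PVP-NW 2, S-PVP-NW 3 or S-SiO2-NW 2, 1 without S-PVP-NW 4, any 1 of L-SiO2-NW 1 to 3 or S-SiO2-NW 1 or 3, and 33 without L-PVP-NW D.

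Arrays within a group were not alike. Among the 91 features higher with long wires whose mean intensity was over 200, L-PVP-NW A was the highest of its group in 56 and L-PVP-NW D the lowest in 50. S-PVP-NW 1 was the lowest of its group in 56 and S-PVP-NW 3 the highest in 43. The median SD over the arrays of a group, on the log2 scale, was 0.371 in L-PVP-NW and 0.576 in S-PVP-NW for these 91, against 0.332 and 0.317 over all 2886 features as bright. In the cuticle list L-PVP-NW A was the highest in 11 of 19 and S-PVP-NW 1 the lowest in 9.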

How the data were processed

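The arrays were single-colour (Cy3) Agilent Quick-Amp hybridizations of 300 ng RNA, per the labels' protocols. The deposited intensities are the scanner's values per feature, without background adjustment or normalization as far as their whole numbers and common ceiling show. Zeros, 310 on 1 Ag+ array, were treated as missing. Intensities received a normexp adjustment (offset 50), log2 and quantile normalization over 24 arrays. limma 3.58.1 in R 4.3.3 fitted 1 mean per group over the 24 arrays, and p-values were adjusted over 14338 features (Benjamini-Hochberg, 0.05). The number of arrays limits the precision.

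Names, probe sequences and the E value, a score of the database match, come from the authors' deposited table, which also holds the authors' log2 ratios against media, not used here. Descriptions were used at E values up to 0.001. No genome positions were assigned. A "read" value in the text is an intensity, and "fold" and "difference" are on the normalized scale.

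The comparison and the lists, formed by words in the descriptions, were chosen with earlier results of these data known. Named features were up to 15 described ones in each direction with the largest differences among those passing without overlap, up to 3 undescribed ones in each direction, every cuticle, vitellogenin and hemoglobin member, up to 4 members with the smallest p of each other list with at least 3, and, for the interaction, described features passing or else the 3 with the smallest p. Others are named as chosen after their values were seen. A rise from a group dim on all arrays is given as "at least". Alternatives in background adjustment, scaling, filters, weights, variance model, floor, arrays fitted and arrays left out were run.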

Additional observations from a re-analysis of the deposited data

Results flagged for a closer look

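Of 80 groups of 4 arrays checked, over 24 features and 16 list levels in the 2 PVP groups, 6 held an array whose gap to its nearest neighbour exceeded 0.829 of the group's range; chance gives about 1 in 20. For the cuticle match DM01895P1, S-PVP-NW 1 stood at 6.32 on the log2 scale with its nearest at 7.31, a gap of 0.888 of the range. For the cuticle match DM02885P1, L-PVP-NW A stood at 10.29 with its nearest at 9.71, a gap of 0.919. L-PVP-NW C was the low array in the level of ribosomal proteins, at -0.313 against 0.42 (0.892), of digestive proteases, at -0.199 against 0.0851 (0.947), and of ion transport, at -0.129 against 0.17 (0.898). S-PVP-NW 1 was the low array in the level of eye and nerve genes, at -0.429 against -0.236 (0.843).

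The length difference with PVP and that with silica were unequal by limma's interaction test for 3 features, none with a described match. The PVP difference exceeded the silica one by 6.09 for DM04057P3 (limma, adjusted p = 0.0135), by 5.92 for DM11644P3 (limma, adjusted p = 0.0435) and by 1.46 for DM12737P2 (limma, adjusted p = 0.0435), on the log2 scale.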

How the results depend on the processing

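The count of 308 for long against short PVP wires was 322 without background adjustment, 365 without the 0.25 of features with the lowest mean and 322 over features above 0 on all arrays. It was 193 with a common 75th percentile, 202 over features with a mean intensity over 200, 682 with array weights, 181 with a trended and robust variance, 186 from the 8 arrays alone and 0 with the floor in the fit, and ranged from 68 to 482 when 1 array was left out. Without features dim on all 8 arrays, an alternative chosen after seeing the data, it was 317. The share higher with long wires was 87.8% with the trended and robust variance. The silica count of 5 was 3 with median centring, 17 with the 75th percentile, 15 over features over 200, 16 with array weights, 11 with the trended and robust variance, 0 from its 8 arrays alone (802 at an unadjusted p under 0.05 in limma) and 0 to 24 with 1 array left out. The interaction count of 3 was 13 with array weights, 0 with the floor in the fit (918 at an unadjusted p under 0.05) and 0 to 33 with 1 array left out. The count of 4 for L-PVP-NW against Control was 2 with median centring, 24 with array weights, 7 with the trended and robust variance, 0 from those arrays alone (922 at an unadjusted p under 0.05) and 2 to 123 with 1 array left out. The count of 194 for S-PVP-NW against Control was 1 with the floor in the fit, 98 from those arrays alone and 105 to 309 with 1 array left out. DM04057P3, DM01743P3, DM02810P1, DM02038P1, DM08108P3, DM02680P2, DM02749P1, DM00747P1, DM06653P1, DM06772P1 and DM01544P2 passed in 18 of 19 settings each, failing with the floor in the fit. No paired analysis was possible because L-PVP-NW arrays carry letters and S-PVP-NW arrays numbers; with the number as a replicate block over the 20 numbered arrays, 4 features passed for silica and 196 for S-PVP-NW against Control. The deviations of same-numbered arrays from their group means correlated at -0.304 to -0.00855 between L-SiO2-NW and S-SiO2-NW and between Control and S-PVP-NW. No shared deviation by number was therefore seen in these groups. So few arrays cannot exclude a pairing that left little trace in the signal, and other groups were not checked.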

Other observations

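Vitellogenin DM02775P1 read 55 to 184 on the Ag+ arrays and 2720 to 39258 on the 8 PVP arrays, while DM01556P2, with the same description, read 7806 to 19523 and 482 to 14690. Ferritin DM01902P1 read 1316 on Control 4 and 1283 on Ag+ 4, and 102 to 178 on the PVP arrays.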
